A study of Bos taurus with 15 samples.

Results

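The angiogenic growth factors VEGFA, FGF2, ANGPT1 and ANGPT2 and the VEGF receptors KDR and FLT1 were measured in uterine tissue taken at the caruncles of Japanese Black cows. Samples came from non-pregnant cows on day 15 (NP15, n = 4) and day 18 (NP18, n = 4) of the estrous cycle and from pregnant cows on day 15 (P15, n = 3) and day 18 (P18, n = 4) of gestation, with the day of insemination counted as day 1. Cows were sorted as pregnant or not by whether fetal trophoblast was seen in the uterine horn on the side of the corpus luteum, and each array held the RNA of 1 cow on a one-color Agilent platform with 15208 probes other than controls. The 6 genes were found by symbol, by symbol in parentheses or by full gene name, which gave 7 probes, and a further 3 probes were the same genes under an older name or a gene ID in RefSeq (VEGF for VEGFA, flk-1 for KDR and a predicted VEGF receptor locus for FLT1). The 10 probes together are described here, out of probes for 6706 gene symbols in all. Where a gene had several probes, the one with the highest mean over the 15 arrays stood for it, and the other is given beside it.

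Blood vessels grow when VEGFA, secreted by epithelial, stromal and immune cells, binds the tyrosine kinase receptor KDR on endothelial cells. FLT1 binds VEGFA more tightly but signals weakly and can hold the ligand back, and FGF2, stored on heparan sulfate in the matrix, acts on vessels through FGF receptors. The angiopoietins act on the endothelial receptor TEK: ANGPT1, made by cells around the vessel, keeps vessels stable, and ANGPT2, made by the endothelium itself, loosens them and lets them respond to VEGFA. The ruminant caruncle is the site at which the maternal side of the placenta later forms.

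Signals are given as array medians, that is, the intensity of a probe divided by the median intensity of all probes on the same array, and are compared between phases but not between probes, which bind with different strength. A probe was counted as well above background where the scanner software said so. The lowest signal that was well above background lay at 0.0304 to 0.0475 array medians in NP15, 0.0196 to 0.0519 in P15, 0.0660 to 0.0950 in NP18 and 0.102 to 0.180 in P18, so that a dim transcript was measured least well in P18. Arrays of the 4 phases were scanned on separate days, and scan day and phase cannot be told apart. In whole tissue, fewer cells of a type and less RNA per cell cannot be told apart either.

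Of the 10 probes, 5 are printed here, 5′ to 3′, to show the stretch of transcript that each measured. They are the less bright VEGFA and KDR probes, the brighter FLT1 probe and the only angiopoietin probes. Each is 60 bases long. Capitals mark the whole codons of the reading frame where only 1 of the 3 forward frames held no stop codon, and the sequences with 2 such frames are in lower case.
VEGFA, dimmer probe: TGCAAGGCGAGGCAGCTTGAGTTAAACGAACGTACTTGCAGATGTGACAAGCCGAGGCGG
KDR, dimmer probe: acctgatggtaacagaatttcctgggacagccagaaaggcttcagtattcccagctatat
FLT1, brighter probe: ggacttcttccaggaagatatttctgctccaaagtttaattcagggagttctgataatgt
ANGPT1: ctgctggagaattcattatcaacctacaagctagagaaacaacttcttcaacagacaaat
ANGPT2: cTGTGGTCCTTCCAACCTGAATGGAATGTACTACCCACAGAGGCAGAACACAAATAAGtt
The VEGFA stretch encodes the carboxyl end of the protein, with residues of the heparin-binding part that the shortest common splice form mostly lacks. The 2 probes of a gene shared runs of no more than 5 bases for VEGFA and FGF2, 6 for FLT1 and 8 for KDR, so each pair measured separate stretches of its transcript. Genome positions of the probes were not analysed here.

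VEGFA was called lower in pregnant than in non-pregnant cows on day 18 with both of its probes, the brighter one close to the limit. Its brighter probe gave 0.605, 1.27, 1.32 and 2.17 array medians in the 4 NP18 cows and 0.582, 0.585, 0.679 and 0.419 in the 4 P18 cows. The P18 cows were all low, and 1 NP18 cow, replicate 1, lay within their range. This cow also had a summed level of 9 epithelial markers of 139 array medians, against 299 to 395 in the other NP18 cows. In P18 this sum was 241 to 342, with VEGFA at 0.419 to 0.679. In P15 it was 140 to 189, with VEGFA at 0.811 to 1.06, and in NP15 it was 275 to 352, with VEGFA at 0.572 to 0.884. The part of epithelial content was not tested. Without NP18 replicate 1 the log2 difference was -1.47 (limma adjusted p = 0.0037), but only 4 of the 15 fits without 1 array kept the call. The mean was 1.34 ± 0.643 (SD, n = 4) in NP18 and 0.566 ± 0.108 (SD, n = 4) in P18, and VEGFA fell by 1.13 on the log2 scale (SE 0.314), with a limma adjusted p of 0.0443 and an exact two-sided permutation p of 0.0571. This call was lost with slide (limma adjusted p = 0.0715), scan day (0.760) or replicate number (0.0726) as a block, with only the 2 phases fitted (0.114) and with the methods' t-test after adjustment (0.193).

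The dimmer VEGFA probe showed the same direction, with no overlap of the signals as read. It gave 0.126, 0.240, 0.358 and 0.388 array medians in NP18 and 0.0918, 0.0760, 0.0638 and 0.0527 in P18. This probe was well above background in all 4 NP18 arrays and in none of the 4 P18 arrays, so only a bound can be given. VEGFA was at least 1.99-fold lower in P18, and the bound ranged from 1.73 to 2.52 when 1 array was left out. The fitted difference, which uses the P18 signals as read, was called (limma adjusted p = 0.0029). The exact permutation p was 0.0286, the smallest that 4 against 4 arrays can give, but it ranks P18 signals that were below background. The NP18 cow at 0.126 lay under the detection floors of P18 replicates 1 and 3 (0.138 and 0.180), so its place above these 2 cows was not measured. The limma call was lost with scan day as a block (limma adjusted p = 0.285) and with the methods' t-test after adjustment (0.0922). Whether splice forms of VEGFA differed was not tested.

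In pregnant cows, the dimmer VEGFA probe was also lower on day 18 than on day 15. The 3 P15 cows had 0.195, 0.163 and 0.224 array medians, all above the 4 P18 signals, which were below background. The P15 cow at 0.163 lay under the detection floor of P18 replicate 3 (0.180), so that rank was not measured. The probe was at least 1.50-fold lower in P18, and the bound ranged from 1.39 to 1.68 when 1 array was left out. For the signals as read, the limma adjusted p was 0.0123 and the exact permutation p 0.0571, the smallest for 3 against 4 arrays. With the brighter probe the P15 cows had 0.827, 0.811 and 1.06 array medians, again above every P18 cow, but the limma adjusted p was 0.180. On day 15, the brighter probe gave 0.884, 0.572, 0.723 and 0.716 in NP15 and the 2 phases overlapped, with a log2 difference of 0.32 (95% interval -0.41 to 1.04, limma adjusted p = 0.709).

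The difference between days in the pregnancy effect on VEGFA was -2.03 on the log2 scale with the dimmer probe (SE 0.463, limma adjusted p = 0.0333), a size that is no bound because of the P18 background. With the brighter probe it was -1.45 (SE 0.463, limma adjusted p = 0.102). From the lowest to the highest mean of the brighter probe, the phases stood in the order P18, NP15, P15 and NP18, and the ranges of each pair of neighbors in that order overlapped. The call of the brighter probe on day 18 was lost without any 1 of NP18 replicates 2, 3 and 4 or any P18 replicate (limma adjusted p 0.0670 to 0.109). It was also lost without NP15 replicate 2 (limma adjusted p = 0.0519) or any P15 replicate (0.0590 to 0.0630), which enter through the shared estimate of spread. The dimmer probe was called without each of the 15 arrays in turn (limma adjusted p 0.000218 to 0.0125). The interaction of the dimmer probe was lost without any 1 of NP15 replicate 2, the 3 P15 replicates, NP18 replicate 3 and P18 replicates 2, 3 and 4 (limma adjusted p 0.0605 to 0.102).

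**Figure D1:**
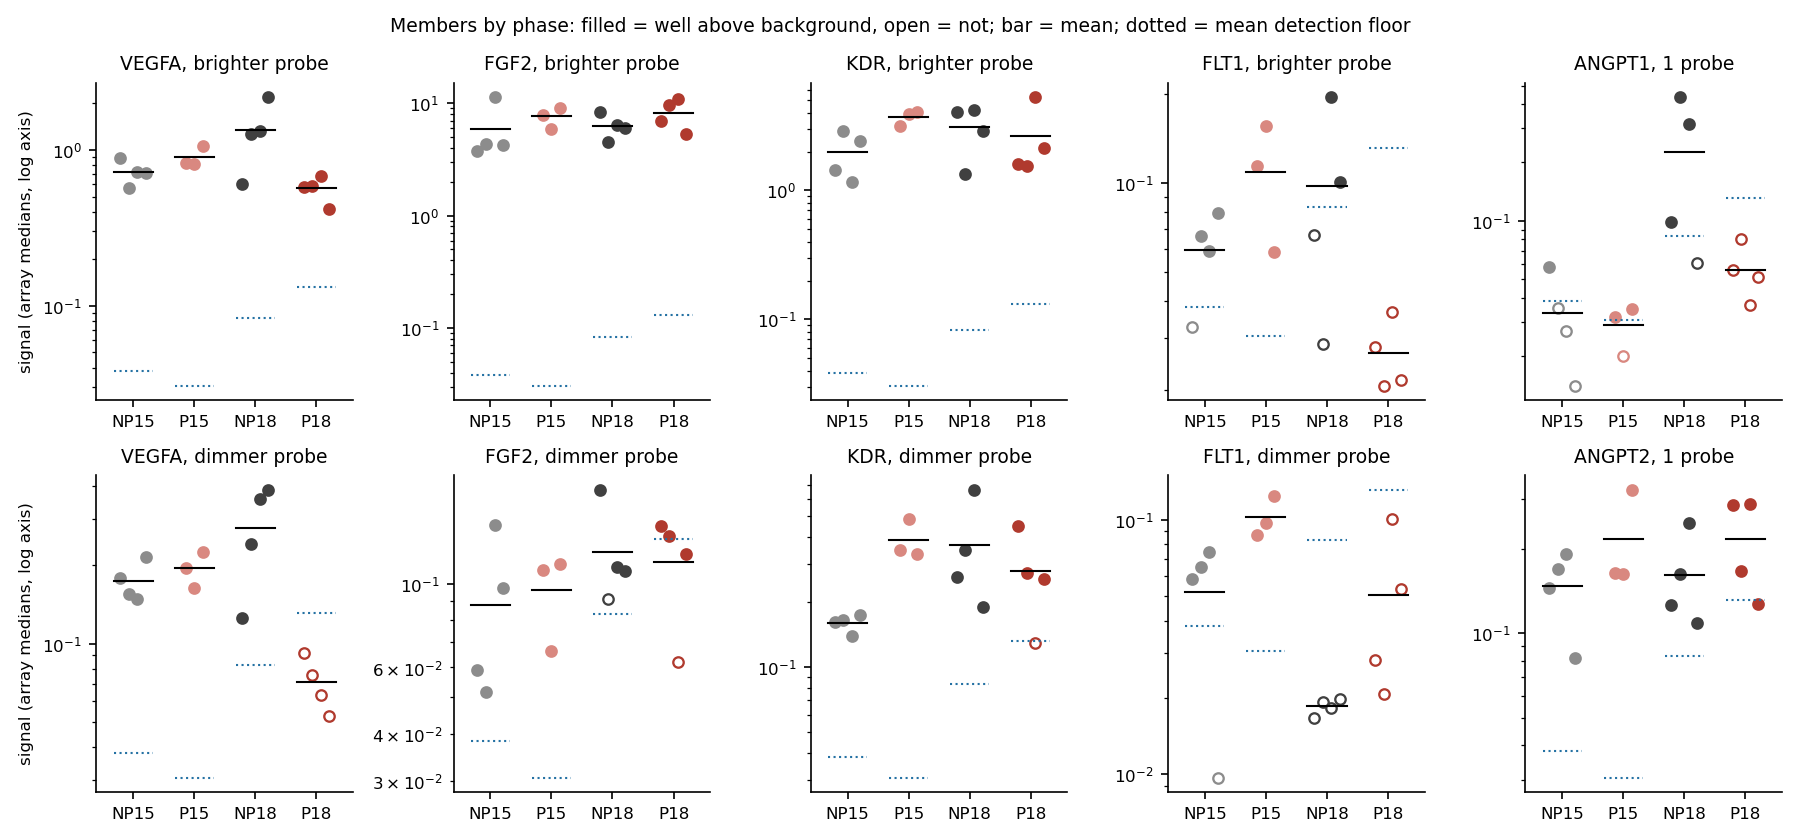
Signal of each member probe in array medians (log axis) for every array, grouped by phase (NP15, P15, NP18, P18). Filled points were well above background and open points were not, solid bars are phase means and dotted lines the mean detection floor of the phase. The dimmer VEGFA probe lies below the floor in all 4 P18 arrays (0.0527 to 0.0918), and KDR in P15 (3.18 to 4.04) lies above NP15 (1.15 to 2.90).

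The count of calls among the members was small in every comparison. Between P15 and NP15, 0 of 6 genes were called, against 0.957% of all 13164 probes tested, and no brightest probe passed an unadjusted limma p of 0.05 either. With all 10 probes, 1 passed the unadjusted limit, the dimmer KDR probe, as did 1956 of all 13164 probes tested. On day 18, VEGFA alone of the 6 genes was called, against 6.91% of all probes. The interaction was called for 0 of the 6 brightest probes, against 2.73% of all probes. At an unadjusted limma p of 0.05 it passed for 2 of the 6 and for 2535 of all 13164 probes. Between NP18 and NP15 ANGPT1 alone was called, against 10.8% of all probes, and between P18 and P15 FLT1 alone, against 16.4%. The median log2 difference of the 6 brightest probes was 0.53 on day 15 and -0.72 on day 18, and that of all probes tested was -0.06 and 0.07.

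**Figure D2:**
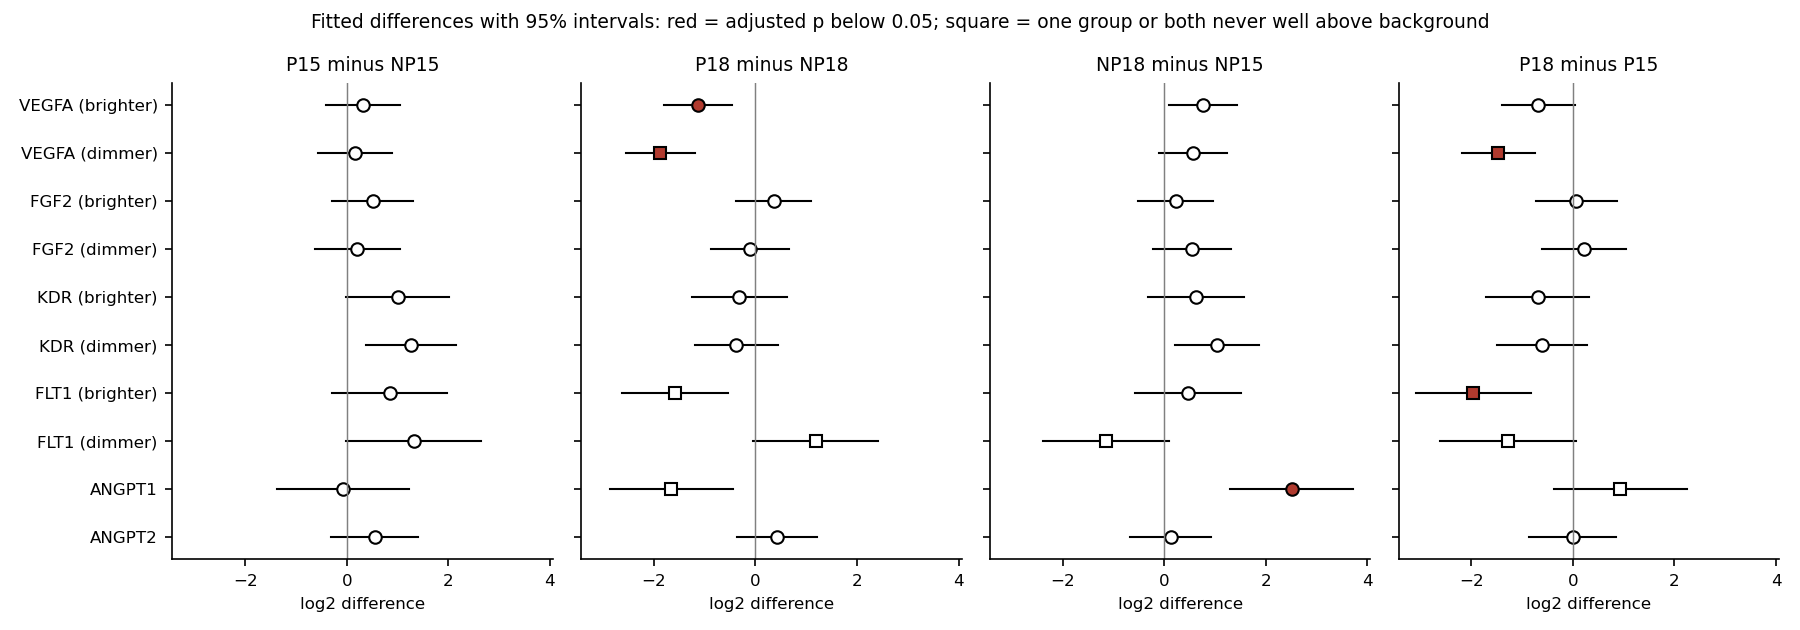
Fitted log2 differences of the 10 member probes with 95% intervals in 4 comparisons of phases. Red marks an adjusted p below 0.05, and a square marks a probe that was never well above background in 1 or both phases, where the size is not measured. On day 18 the 2 VEGFA probes stand at -1.13 and -1.87, and both KDR intervals include 0.

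FGF2, the matrix-bound growth factor, showed no called difference with either probe. The brighter probe gave 3.72, 4.30, 11.3 and 4.28 array medians in NP15 and 7.92, 5.95 and 9.08 in P15. One NP15 cow was far above the other 3 and above all of P15. On day 18 it gave 8.38, 4.55, 6.36 and 5.97 in NP18 and 6.91, 9.61, 11.0 and 5.34 in P18, with wide overlap. The log2 difference between pregnant and non-pregnant cows was 0.52 on day 15 (95% interval -0.28 to 1.31) and 0.36 on day 18 (-0.38 to 1.09), with limma adjusted p of 0.551 and 0.564. The phases stood in the order NP15, NP18, P15 and P18, from 5.89 ± 3.59 (SD, n = 4) to 8.21 ± 2.55 (SD, n = 4) array medians, and no neighbors were apart. The dimmer FGF2 probe ranged from 0.0516 to 0.178 array medians over the 15 arrays, and its day 18 difference had the opposite sign (log2 -0.11, 95% interval -0.88 to 0.66).

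ANGPT1, the vessel-stabilizing angiopoietin, was well above background in 6 of the 15 arrays, 3 of them in NP18. The 4 NP18 cows had 0.0984, 0.434, 0.317 and 0.0603 array medians, of which the first 3 were well above background. The 4 NP15 cows had 0.0577, 0.0355, 0.0268 and 0.0140, with 1, that at 0.0577, well above background. All lay below the NP18 signals as read. The lowest NP18 signal, 0.0603, was under its detection floor of 0.0660, so its rank over 0.0577 was not measured. The exact permutation p of this comparison rests on that rank. ANGPT1 was called higher in NP18 than in NP15, with a fitted log2 difference of 2.51 (SE 0.565, limma adjusted p = 0.0141, exact permutation p = 0.0286) whose size rests on NP15 signals mostly at background. With normexp background correction it was 0.61 and not called (limma adjusted p = 0.127). The call was also lost with only the 2 phases fitted (limma adjusted p = 0.0881), the methods' t-test after adjustment (0.189) and scan day as a block (0.208), and held without each of the 8 arrays in turn.

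In pregnant cows ANGPT1 was near or under background on both days. P15 had 0.0317, 0.0198 and 0.0351 array medians, with 2 well above background. P18 had 0.0555, 0.0800, 0.0367 and 0.0509, and none of the 4 P18 arrays was well above background. The P18 detection floors, 0.102 to 0.180, lay above the NP18 signals of 0.0984 and 0.0603, so P18 was not measured as lower than those cows. Between P18 and NP18 ANGPT1 was at least 1.32-fold lower, and the bound ranged from 0.965 to 1.86 when 1 array was left out. The difference of the signals as read did not pass the test (limma adjusted p = 0.0935, exact permutation p = 0.0571). On day 15 the log2 difference was -0.08 (95% interval -1.38 to 1.23). No order of the phases is given, since most signals lay under the detection floor, which differed between phases.

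ANGPT2, the vessel-loosening angiopoietin, was well above background in all 15 arrays and was not called in any comparison. NP15 had 0.145, 0.169, 0.192 and 0.0814 array medians and P15 had 0.164, 0.163 and 0.325. NP18 had 0.126, 0.163, 0.247 and 0.109 and P18 had 0.287, 0.167, 0.288 and 0.127. The highest values were those of 1 P15 cow and 2 P18 cows, and the groups overlapped on both days. The log2 difference was 0.55 on day 15 (95% interval -0.30 to 1.41, limma adjusted p = 0.550) and 0.42 on day 18 (-0.37 to 1.21, limma adjusted p = 0.520). In pregnant cows the means of the 2 days were 0.217 ± 0.0932 (SD, n = 3) and 0.218 ± 0.0827 (SD, n = 4).

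KDR, the main signaling receptor of VEGFA, was higher in every P15 cow than in every NP15 cow with both probes, but neither probe passed the adjusted test. The brighter probe gave 1.44, 2.90, 1.15 and 2.41 array medians in NP15 and 3.18, 3.93 and 4.04 in P15, with a log2 difference of 1.00 (95% interval -0.02 to 2.02, limma adjusted p = 0.343). The dimmer probe gave 0.161, 0.165, 0.139 and 0.174 in NP15 and 0.349, 0.488 and 0.333 in P15, with a log2 difference of 1.27 (95% interval 0.39 to 2.15, unadjusted p = 0.00804, adjusted p = 0.180 by limma). The exact permutation p was 0.0571 for each, the smallest that 3 against 4 arrays can give. With the dimmer probe every NP18 cow was also above every NP15 cow (log2 difference 1.04, limma adjusted p = 0.0898, exact permutation p = 0.0286).

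On day 18 KDR overlapped between the groups with both probes. The brighter probe gave 4.03, 1.33, 4.22 and 2.91 array medians in NP18 and 1.60, 1.53, 5.26 and 2.12 in P18, so that the highest cow of all was pregnant. The dimmer probe gave 0.263, 0.350, 0.665 and 0.189 in NP18 and 0.452, 0.273, 0.129 and 0.256 in P18, where the third array was not well above background and was low while the same cow was the highest with the brighter probe. The log2 differences were -0.32 (95% interval -1.26 to 0.62) and -0.38 (-1.19 to 0.44). The phases stood in the order NP15, P18, NP18 and P15 with both probes, and the ranges of each pair of neighbors overlapped. The difference between days in the pregnancy effect was -1.32 and -1.64 on the log2 scale, with limma adjusted p of 0.283 and 0.127.

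FLT1, the tight-binding VEGF receptor, was close to background, and on day 18 no P18 array was well above background with either probe. The brighter probe gave 0.0327, 0.0664, 0.0590 and 0.0795 array medians in NP15 and 0.114, 0.156 and 0.0586 in P15, and 0.0669, 0.0287, 0.195 and 0.101 in NP18, of which the last 2 were well above background. In P18 it gave 0.0281, 0.0207, 0.0367 and 0.0217, none of them well above background. It was called between P18 and P15 (limma adjusted p = 0.0238), but no fold is given, since the detection floor in P18 lay on average above the signal in P15, and the call was lost without any 1 of P15 replicates 1 and 2 and P18 replicates 2 and 4 (limma adjusted p 0.0529 to 0.0992).

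The dimmer FLT1 probe gave 0.0586, 0.0654, 0.0749 and 0.00966 array medians in NP15, of which the last was not well above background. It gave 0.0872, 0.0970 and 0.125 in P15, with every P15 cow above every NP15 cow (log2 difference 1.32, 95% interval -0.01 to 2.65, limma adjusted p = 0.342). The size of this difference rests in part on the NP15 signal under background. On day 18 it was well above background in none of the 8 arrays, at 0.0166 to 0.0198 in NP18 and 0.0207 to 0.101 in P18, so FLT1 was not measured there by this probe. In P18 replicates 1 and 2 both FLT1 probes had the same value, 0.0281 and 0.0207. In P18 replicate 3 the brighter FLT1 probe and ANGPT1 had the same value, 0.0367. None of these shared values was well above background, so they are not levels of the transcripts, but they entered the fits as read. Between P18 and NP18 neither probe was called (limma adjusted p = 0.0657 and 0.224), and no size or direction was measured.

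Ratios of 2 probes on the same array do not depend on how the array was scaled. Of the 20 combinations of 5 ratios and 4 comparisons, 14 had both probes well above background in at least 1 array of each phase and were tested, with p adjusted over the 14. ANGPT2 over ANGPT1 was 2.24 ± 0.650 (SD, n = 4) on the log2 scale in NP15 and -0.14 ± 0.983 (SD, n = 4) in NP18. The difference was -2.39 with no overlap, at the smallest exact permutation p (0.0286) and an adjusted p of 0.400. Both probes were well above background in 1 of the 4 NP15 arrays and 3 of the 4 NP18 arrays, and with normexp the difference was -0.75. VEGFA over FGF2 was -2.34 ± 1.02 (SD, n = 4) in NP18 and -3.82 ± 0.237 (SD, n = 4) in P18, a difference of -1.48 (exact permutation p = 0.0857, adjusted p = 0.400). VEGFA over KDR differed by -0.68 between pregnant and non-pregnant cows on day 15 and by -0.81 on day 18, with overlap on both days (adjusted exact p = 0.733 for each). KDR over FLT1 could be compared on day 15, where it differed by 0.16 (adjusted exact p = 0.923). No ratio passed the adjusted test.

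**Figure D3:**
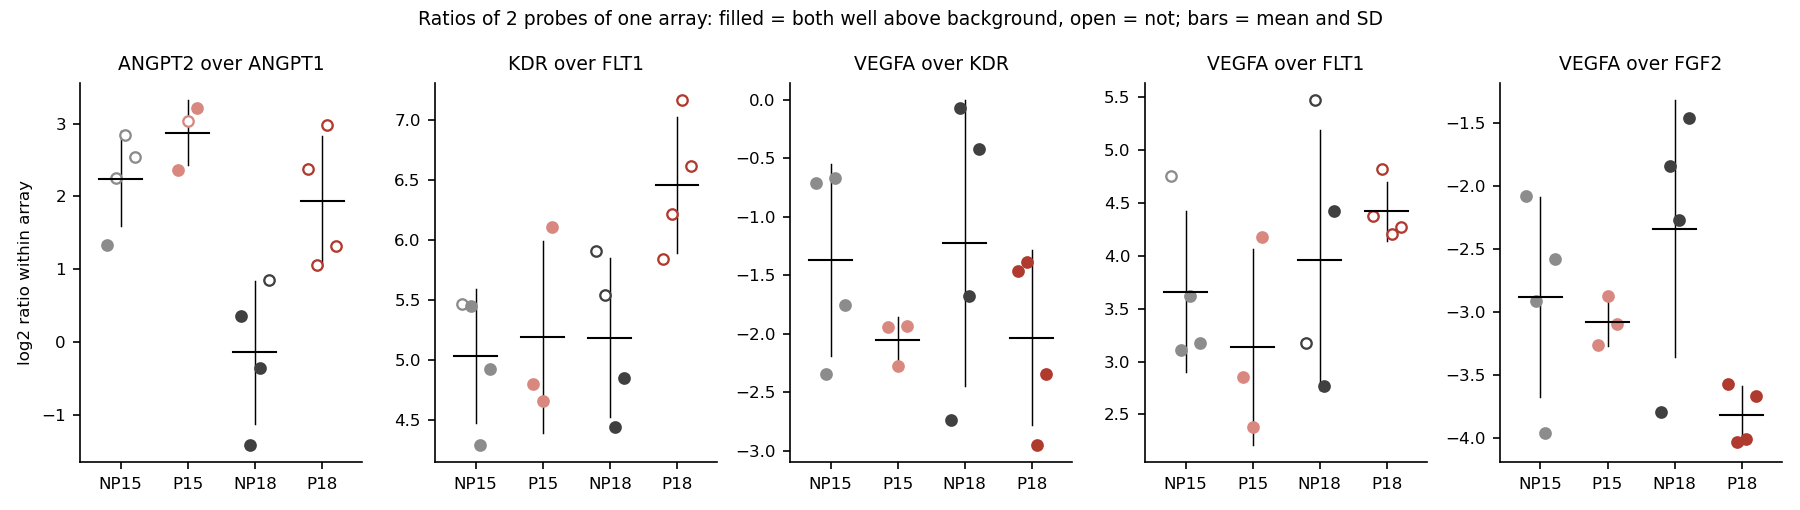
Log2 ratio of 2 member probes within each array, by phase, with the mean and SD. Filled points had both probes well above background and open points did not. ANGPT2 over ANGPT1 in NP18 (-1.42 to 0.85) lies below NP15 (1.33 to 2.84, with 1 filled point of 4), and VEGFA over FGF2 in P18 (-4.04 to -3.57) lies below P15 (-3.26 to -2.88).

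The genes whose levels ran most alike with each member over the 15 arrays, out of about 6320 probes with a symbol, are given as a description. The arrays share phases, so the value within phases (r of the deviations from phase means) stands beside each r. For VEGFA they were LBH (r = 0.904, within phases 0.898), GHRH (0.890, within phases 0.758) and TIMP1 (0.886, within phases 0.905), the last an inhibitor of matrix metalloproteinases. For KDR they were ESAM (r = 0.786, within phases 0.823), an endothelial adhesion molecule, GPCPD1 (0.781, within phases 0.727) and PTPRB (0.767, within phases 0.781), the endothelial phosphatase that acts on TEK. For FLT1 they were NOS3 (r = 0.920, within phases 0.861), the endothelial nitric oxide synthase, PLXNA2 (0.869, within phases 0.819) and TIE1 (0.861, within phases 0.695), an endothelial receptor of the angiopoietin system.

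FGF2 ran most like the amino acid transporters SLC7A2 (r = 0.917, within phases 0.966) and SLC1A3 (0.908, within phases 0.918) and like AOC1 (0.887, within phases 0.910). ANGPT1 ran most like HAS2, a hyaluronan synthase (r = 0.878, within phases 0.663), NOA1A (0.846, within phases 0.577) and the transcription factor NFIB (0.830, within phases 0.588). ANGPT2 ran most like GCNT1 (r = 0.826, within phases 0.861), the peptide transporter subunit TAP2 (0.823, within phases 0.806) and TRIP6 (0.821, within phases 0.803). Between members the highest r was that of KDR and FLT1 (0.582, within phases 0.612), followed by FGF2 and ANGPT2 (0.521, within phases 0.393), and that of VEGFA and KDR was 0.139. For ANGPT1 and FLT1, most points lay near background.

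Among 126 other genes of the pathways, 84 had a probe and 80 were tested. None was called on day 15 by limma, where 8 were higher and 6 lower at an unadjusted p of 0.05, beside 1956 of all 13164 probes. The methods' t-test gave 3 and 4 unadjusted, beside 1681 of all probes, and 0 after adjustment. On day 18, 4 were higher and 5 lower in pregnant cows, where 6.91% of all 13164 probes were called (594 higher and 316 lower), and the median log2 difference was -0.17, against 0.07 over all probes. The count of 5 lower genes became 2 without NP18 replicate 3 or 4 or P18 replicate 3, 3 without P18 replicate 4 and 1 without P18 replicate 2.

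Of the 15 tested genes downstream of VEGF and FGF receptors, 1 was higher and 2 were lower on day 18, beside 6.91% called of all probes. NOS3, which makes nitric oxide downstream of KDR, was 5.05, 2.29, 6.79 and 8.04 array medians in NP18 and 1.62, 1.43, 1.53 and 1.39 in P18. Every P18 cow was lower, by 1.75 on the log2 scale in the mean (SE 0.368, limma adjusted p = 0.0117). AKT1, a kinase of the same route, was called lower in P18, with a fitted log2 fall of 2.58 (SE 0.620, limma adjusted p = 0.0232). As read, it went from 0.901 ± 0.346 to 0.210 ± 0.183 (SD, n = 4 each), with 2 of 4 P18 arrays well above background. P18 replicates 2 and 3, at 0.0883 and 0.0367, lay under their detection floors of 0.102 and 0.180, so the size was not fully measured. PLCG1, the phospholipase that KDR activates, was not called between P18 and NP18 (limma adjusted p = 0.0526). PLCG1 was at least 2.09-fold lower in P18 than in P15, and the fitted difference was called (limma adjusted p = 0.00665). SPRY4, a feedback inhibitor of these receptors, was called higher in P18 than in NP18 (limma adjusted p = 0.00968), but 1 of the 4 P18 arrays and none of the NP18 arrays were well above background, and the bound was 1.02-fold.

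In the angiopoietin and TIE system, TIE1 was called lower in P18 than in NP18, with a fitted log2 difference of -1.87 (SE 0.409, limma adjusted p = 0.0146). It was 0.288, 0.259, 0.818 and 0.340 array medians in NP18 and 0.190, 0.0793, 0.0805 and 0.0960 in P18. Only 1 P18 array, that at 0.190, was well above background, so the size rests on P18 signals mostly under the detection floor. TEK, the receptor of ANGPT1 and ANGPT2, was 6.74 ± 1.24 (SD, n = 4) in NP15 and 12.1 ± 1.72 (SD, n = 3) in P15 with no overlap, but was not called (log2 difference 0.85, limma adjusted p = 0.183). PTPRB rose by 1.30 from NP15 to NP18 (SE 0.379, limma adjusted p = 0.0410). Of the other VEGF ligands, none of 4 was called with pregnancy on either day, and VEGFB was lower on day 18 than on day 15 in non-pregnant cows (log2 -1.13, limma adjusted p = 0.00782) and in pregnant cows (-0.78, limma adjusted p = 0.0423). NRP2, a co-receptor of VEGFA, was not called in any comparison.

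In the FGF system, FGF10, a stromal growth factor that acts on epithelium, rose in P18. It was 0.476, 0.419, 0.437 and 0.133 array medians in NP18 and 1.12, 1.03, 1.05 and 0.646 in P18, an increase of 1.52 on the log2 scale (SE 0.366, limma adjusted p = 0.0237). The heparan sulfate proteoglycans HSPG2 (log2 -0.66, limma adjusted p = 0.0454) and SDC1 (-0.75, limma adjusted p = 0.0492) fell between NP18 and P18, with adjusted p close to the limit. FGFR2, the receptor of FGF10 on epithelium, was not called with pregnancy on day 18 (log2 0.21, limma adjusted p = 0.801) and rose from P15 to P18 by 1.76 (SE 0.441, limma adjusted p = 0.0172). HSPG2 and FGFR2 had 2 probes each, and these values are of 1 probe only. FGFR3 was lower on day 18 than on day 15 in non-pregnant cows (log2 -1.23, limma adjusted p = 0.00700) and in pregnant cows (-0.80, limma adjusted p = 0.0481).

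SLC2A1, the glucose transporter that responds to hypoxia, had the largest log2 rise of the 80 tested genes on day 18. It was 17.9, 47.4, 42.3 and 9.73 array medians in NP18 and 141, 147, 139 and 144 in P18, an increase of 2.55 on the log2 scale (SE 0.472, limma adjusted p = 0.00586). None of the other 9 tested hypoxia genes was called on day 18, and EGLN3, an oxygen-sensing hydroxylase, rose from P15 to P18 by 2.69 (SE 0.580, limma adjusted p = 0.00909). CXCR4, the receptor of CXCL12, was 0.725 to 3.61 array medians in the 4 NP18 cows and 4.41 to 7.30 in the 4 P18 cows, a rise of 1.74 on the log2 scale (limma adjusted p = 0.0122), and 0 of 13 angiogenesis inhibitors and 0 of 6 Notch genes were called on day 18 by limma, counts too small to stand apart from the 6.91% of all probes. At an unadjusted limma p of 0.05 these lists held 2 lower and 1 higher inhibitors and 1 lower and 0 higher Notch genes. Of all 13164 probes, 3177 passed that limit. The methods' t-test with adjustment called 0 of all the lists' genes, beside 247 of all probes. TIMP3, an inhibitor of VEGFA binding to KDR, rose from NP15 to NP18 by 1.50 (SE 0.320, limma adjusted p = 0.0112), as did the kinase subunit PIK3CA by 0.70 (limma adjusted p = 0.0493). COL18A1, the source of endostatin, fell from P15 to P18 by 1.86 (limma adjusted p = 0.0299), and S1PR1 fell by 0.92 (limma adjusted p = 0.0449).

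Other genes with the smallest unadjusted p of their list were not called by limma. On day 15 these were NRP2 (log2 difference 0.71, adjusted p = 0.429), the vasoconstrictor EDN1 (0.96, adjusted p = 0.249), the Notch ligand DLL4 of tip cells (0.82, adjusted p = 0.391), the glycolytic enzyme ENO1 (-1.22, adjusted p = 0.174) and the basement membrane collagen COL4A3 (1.18, adjusted p = 0.325). On day 18 they were the Notch target HEYL (-0.97, adjusted p = 0.186), the angiogenesis inhibitor SERPINF1 (-0.92, adjusted p = 0.115) and VEGFD (adjusted p = 0.127), a ligand of lymphatic vessels that was well above background in 3 NP18 arrays and no P18 array. FLT4, its receptor, was well above background in no array of day 18.

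**Figure D4:**
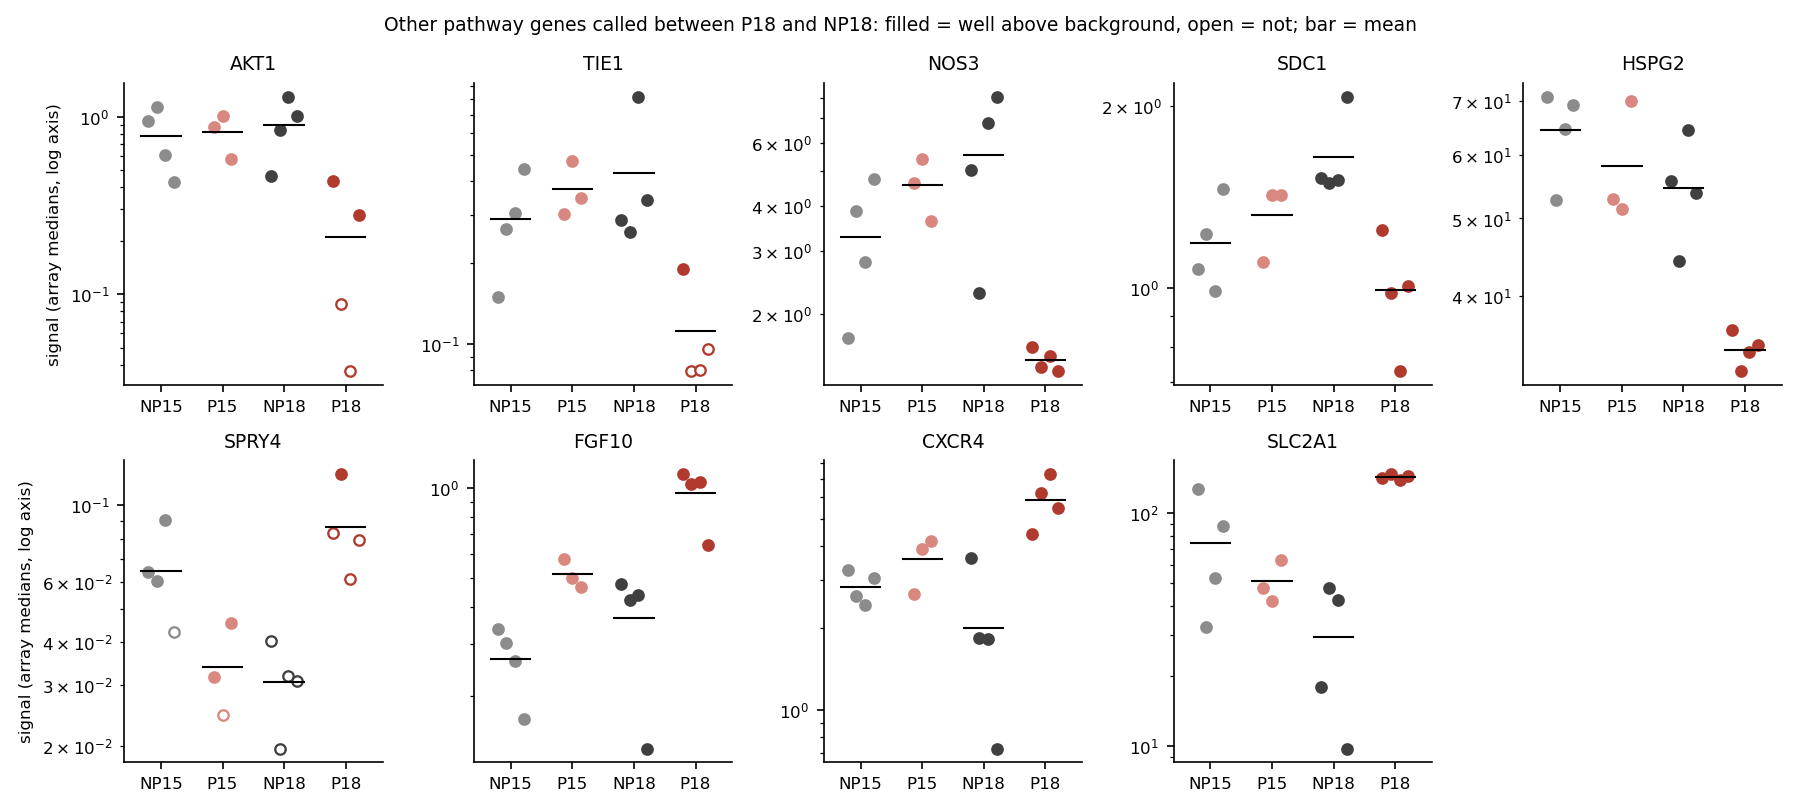
Signal in array medians (log axis) of the 9 other pathway genes called between P18 and NP18, for every array by phase. Filled points were well above background, open points were not, and bars are phase means. NOS3 in P18 (1.39 to 1.62) lies below all NP18 arrays (2.29 to 8.04), and SLC2A1 in P18 (139 to 147) lies above them (9.73 to 47.4).

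Markers of cell types were set beside the comparisons. Over all 13164 probes, 0.957% were called on day 15 and 6.91% on day 18, with median log2 differences of -0.06 and 0.07. Of 16 tested endothelial markers, PECAM1 (log2 -1.54, limma adjusted p = 0.0148), TIE1 and SOX18 (-1.69, limma adjusted p = 0.00689) were lower in P18 and none was higher, 14 of 16 estimates were below 0 and their median was -0.73. CDH5, the adhesion molecule of endothelial junctions, differed by -0.01. The summed level of the list was 101 to 187 array medians in NP18 and 76.2 to 133 in P18, and PLVAP and AQP1 were not well above background in any P18 array. On day 15, 14 of the 16 estimates were above 0, with a median of 0.42, and FLI1 was called higher (log2 1.60, limma adjusted p = 0.0246). The summed level was then 80.6 to 215 in NP15 and 125 to 173 in P15, with every marker well above background in at least 1 array of each phase. Of 7 pericyte and smooth muscle markers, ACTA2 (log2 -3.90, limma adjusted p = 0.00191) and CNN1 (-2.69, limma adjusted p = 0.00630) were lower in P18, and the summed level was 89.5 to 217 in NP18 and 46.0 to 96.2 in P18. On day 15 the summed level of 9 epithelial markers was 275 to 352 array medians in NP15 and 140 to 189 in P15, beside the higher KDR and TEK values in P15, and none of the 9 was called. The part of endothelial, epithelial and mural cell content in the VEGFA, NOS3 and TIE1 results was not tested.

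Of 10 tested trophoblast markers, 6 were called higher in P18 than in NP18, beside 6.91% of all probes called in either direction. Among them were TKDP4, TKDP1, PAG11 and IFNT2, and ELF5 was lower. The summed level was 0.465 to 0.907 array medians in NP15, 0.527 to 1.04 in P15, 1.24 to 2.61 in NP18 and 1.08, 137, 80.9 and 574 in the 4 P18 cows, and CDX2 and GCM1 were not well above background in any P18 array. In the first P18 cow, with the trophoblast markers at the level of non-pregnant cows, VEGFA was 0.582 and 0.0918 array medians with the 2 probes, NOS3 was 1.62, FGF10 was 1.12 and SLC2A1 was 141. Without this array the VEGFA difference on day 18 was log2 -1.15 with the brighter probe (limma adjusted p = 0.0670) and that of the dimmer one was still called (limma adjusted p = 0.00407). Epithelial, stromal and leukocyte markers were called in 0 of 9, 1 of 8 (COL1A1, lower) and 1 of 15 (ITGB2, higher) on day 18. These counts are too small to stand apart from the 6.91% of all probes. Of 8 endometrial markers ESR1 and MSX1 were called lower, and ESR1 was well above background in no P18 array.

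**Figure D5:**
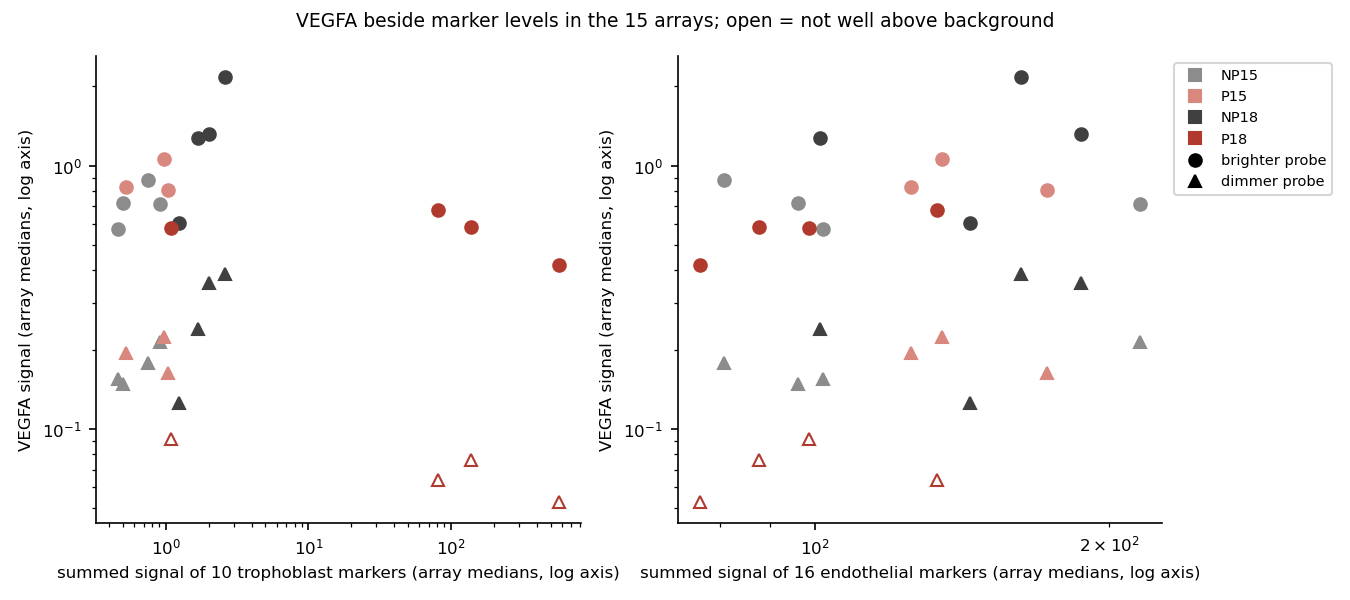
VEGFA signal in array medians for each of the 15 arrays (brighter probe, circles, and dimmer probe, triangles) against the summed signal of 10 trophoblast markers and of 16 endothelial markers, all on log axes. Open points were not well above background. One P18 array has a trophoblast sum of 1.08, within the range of the arrays of the other phases, and its VEGFA signal is 0.582 and 0.0918.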

How the data were processed

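Total RNA of caruncular endometrium was labeled with Cy3 and hybridized to one-color 60-mer bovine arrays, 1 array per cow. The study gives 4 cows per stage, of which 3 P15 arrays were analysed here. The deposited intensity values were read by the authors with Agilent Feature Extraction 9.5, which subtracts background. A deposited log2 table, made by the authors, holds the log2 signal of each array less a constant and served as an alternative. Signals were expressed relative to the median over 15208 probes other than controls and log2 transformed. Outlier spots were set missing. Probes had to exceed background clearly on 3 or more of the 15 arrays, which left 13164, and were fitted with limma 3.58.1 in R 4.3.3, with 1 mean per phase, and Benjamini-Hochberg adjusted p below 0.05 was the call. Exact two-sided permutation tests stand beside it. Intervals are at 95%. Scripts were tested on simulated data. The number of arrays limits the precision.

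Symbols came from the gene names of the array design and from RefSeq by unversioned accession or gene ID, for 7026 probes. A member's gene was represented by its brightest probe, with all probes given. A gene of the lists was represented by its brightest tested probe only. Of the pathway lists, genes called between any pair of phases were named, and for each list the gene with the smallest unadjusted p on day 15 and on day 18. For each member, the 3 probes with a symbol and the highest Pearson r over the 15 arrays were named. Members and lists were chosen with earlier results of these data known. Ratios were tested within arrays. Alternatives covered scaling, background correction, the filter, array weights, the variance model, the samples fitted, slide, scan day and replicate blocks, the other probe, the methods' t-test and leaving out each array. A bound uses the detection floor of each array in the dim phase.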

Additional observations from a re-analysis of the deposited data

Results flagged for a closer look

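The pregnancy effect on VEGFA differed between day 18 and day 15 with the dimmer probe, by -2.03 on the log2 scale in the limma interaction (adjusted p = 0.0333). The interaction was likewise past the limit for NOS3 at -2.30 (limma adjusted p = 0.0377), for SLC2A1 at 2.95 (0.0377) and for SPRY4 at 2.41 (0.0143). The sizes for VEGFA and SPRY4 are not measured, since the VEGFA probe was well above background in no P18 array and SPRY4 in no NP18 array and 1 P18 array. In NP15, 1 cow had 11.3 array medians of the brighter FGF2 probe, far above the other 3. Another NP15 cow had 0.00966 array medians of the dimmer FLT1 probe, far below the other 3 and below background. Of 30 sets of 4 arrays tested for an array far from the rest, these 2 were found, and chance alone picks out about 1 in 20 such sets.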

How the results depend on the processing

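Over 53 results and 1091 alternatives, 908 kept direction and side of the threshold, 83 lost the call or had a lower count, 51 gained and 49 changed sign. The cause was not tested. VEGFA on day 18 kept -1.13 but missed the limit with no filter on dim probes, with only the 2 groups fitted, with the adjusted t-test of the methods and with a slide, scan-day or replicate block. Replicate numbers did not pair the arrays (correlations of deviations -0.26 to 0.30), and in the replicate block fit VEGFA on day 18 was -1.13 (limma adjusted p = 0.0726). The block turned ANGPT2 to 0.0871 for the interaction and 0.21 between days in pregnant cows. With array weights the VEGFA interaction (-1.66), VEGFA in non-pregnant cows (0.95) and pregnant cows (-0.71), ANGPT1 on day 18 (-2.20), its interaction (-2.02) and its change in pregnant cows (1.00), and KDR in pregnant cows (-0.90) passed the limit. With 75th percentile scaling, VEGFA (-0.97) passed and FGF2 (-0.23) turned sign in pregnant cows, and ANGPT1 on day 15 was 0.0202. The authors' log2 table gave -0.97, -0.23 and 0.0180 for these. Quantile normalization gave calls of -2.14 for ANGPT1 and -2.56 for FLT1 on day 18 and -3.30 for the FLT1 interaction, and turned FGF2 (-0.24) and ANGPT2 (0.05004) in pregnant cows. Normexp turned FGF2 (-0.00926) and ANGPT2 (0.21) in pregnant cows, ANGPT2 (-0.14) and FLT1 (-0.14) in non-pregnant cows, the ANGPT1 (0.0103) and ANGPT2 (0.36) interactions, FLT1 on day 15 (-0.0897) and VEGFA over FLT1 on day 15 (0.32), and the calls of ANGPT1 in non-pregnant cows (0.61) and FLT1 in pregnant cows (-0.42) were lost. ANGPT1 in non-pregnant cows also lost its call with 2 groups fitted or the adjusted t-test (2.51) and with scan day as a block (2.60), and FLT1 in pregnant cows with scan day as a block (-1.96). ANGPT1 on day 15 was 0.00932 with that block. VEGFA in pregnant cows passed with 2 groups fitted or the unadjusted t-test (-0.68), which also passed ANGPT1 in pregnant cows (0.94), KDR on day 15 (1.00) and FLT1 on day 18 (-1.59). The other probe gave -2.03 for the VEGFA interaction and -1.47 for VEGFA in pregnant cows, both called, -0.11 for FGF2 and 1.19 for FLT1 on day 18, -1.15 for FLT1 in non-pregnant cows and -1.28 in pregnant cows.

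Without 1 array, VEGFA on day 18 ranged from -1.47 to -0.85, its interaction from -1.78 to -1.17, and its change from 0.49 to 1.11 in non-pregnant and -0.77 to -0.54 in pregnant cows. FGF2 in pregnant cows ranged from -0.10 to 0.26 and its interaction from -0.52 to 0.0291. ANGPT1 ranged from -0.44 to 0.24 on day 15, -2.15 to -1.20 on day 18, -2.07 to -1.12 for the interaction and 2.06 to 3.01 in non-pregnant cows. ANGPT2 ranged from -0.30 to 0.20 for the interaction, -0.13 to 0.29 in non-pregnant and -0.17 to 0.33 in pregnant cows. FLT1 ranged from -2.07 to -1.15 on day 18, -2.92 to -1.99 for the interaction and -2.35 to -1.65 in pregnant cows. KDR over FLT1 ranged from -0.30 to 0.42 on day 15 and -0.10 to 0.40 in non-pregnant cows, VEGFA over KDR from -0.24 to 0.65 and -0.20 to 0.32 between days, VEGFA over FLT1 from -0.21 to 0.70 in non-pregnant cows and VEGFA over FGF2 from -0.56 to 0.0728 on day 15. The other pathway genes higher on day 15 numbered 10 with array weights, 3 with the unadjusted t-test and 0 to 1 without 1 array, and those lower 1 with normexp, 3 with array weights and 4 with the unadjusted t-test. Those higher on day 18 numbered 2 with 2 groups fitted, 0 with the adjusted t-test or the scan-day block and 3 to 5 without 1 array. Those lower on day 18 numbered 3 with no filter, the strict filter, 2 groups fitted, the slide block or a fold over 2 required, 12 with array weights, 11 with the unadjusted t-test, 0 with the adjusted t-test or the scan-day block and 1 to 5 without 1 array. All probes called without 1 array numbered 4 to 400 on day 15 and 445 to 1216 on day 18, 59 to 554 for the interaction, 756 to 2228 in non-pregnant and 782 to 1999 in pregnant cows. In the same order they numbered 0, 49, 0, 54 and 0 with scan day as a block, 1902, 2404, 1658, 2748 and 6031 with array weights, and on day 15, on day 18 and in non-pregnant cows 2, 247 and 181 with the adjusted t-test. With the unadjusted t-test they numbered 1681 on day 15 and 2843 on day 18. The 75th percentile shifted the median of all probes between days in pregnant cows by -0.30. ANGPT1 and FLT1 signals near background limit what can be said of them. The FLT1 values on day 18 are fitted from P18 signals under the detection floor and give no measured size or direction.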
